A study of Mus musculus with 3 samples.

Results

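The genes described are those whose products, with few exceptions, carry amino acids or close relatives of them across membranes in 7 solute carrier (SLC) families: Slc1, Slc3, Slc6, Slc7, Slc36, Slc38 and Slc43. The rule uses the symbol alone and no measured value, though the families were picked for description with earlier results of these data known. Of 19938 genes with values, 64 matched, read by 66 probe sets; Slc38a1 and Slc38a9 had 2 probe sets each, which were averaged. Of the 64, 62 are carriers or their subunits, and 2, Slc6a19os and Slc7a6os, carry these names only because they lie on the strand opposite a carrier gene.

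The kidney was taken from female mice of strain CBL/6, aged 8 to 10 weeks, and its RNA was read on Affymetrix Mouse Gene 1.0 ST arrays. The control array held kidney RNA of mice given no treatment. The NTS array held kidney RNA of mice injected once with nephrotoxic serum, a sheep antiserum that starts an immune nephritis; the dose was 13.5 ug per g body weight. The NTS/PGE2 array held kidney RNA of mice given that serum at the same dose and, daily from day 2, the lipid mediator prostaglandin E2 (PGE2), 5 ug per g body weight. The treated mice were killed on day 7. No group given PGE2 alone was analysed here, and the labels do not say whether an array holds RNA of 1 mouse or of a pool, or whether the control mice received any vehicle.

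With 1 array per group no difference has a replicate check and no test could be run, so "higher" and "lower" below compare arrays, not conditions in general. Values are the log2 values the authors deposited, and a log2 difference of 1 is 2-fold. A gene passed the filter on dim genes in a comparison if the higher of its 2 values reached that array's median of all probe sets, and was counted when its values differed 2-fold or more. In 447 genes read by a pair of bright probe sets, the gap between the pair gave an SD for the difference of 1 probe set; it was 0.19 for NTS minus control and for NTS/PGE2 minus NTS, and 0.12 for NTS/PGE2 minus control; it leaves out the spread between animals. The values of different genes are not set against each other, since probes differ in brightness. In whole kidney, fewer cells of a type and less RNA per cell cannot be told apart. Proximal tubule markers, which are bright on all 3 arrays and define the labelled tissue, moved with the NTS array: their linear values summed over 10 markers to 77905, 37463 and 82196 on the control, NTS and NTS/PGE2 arrays, 8 of the 10 were lower in NTS than in control by 2-fold or more, and 0 lay below the 25th percentile of any array. The control array stood apart in fat markers, which were high there, with values given beside the member they touch. The 5 urothelium markers were less uniform and summed to 1559, 908 and 542 on the control, NTS and NTS/PGE2 arrays. Of these, 2 were lower in NTS than in control by 2-fold or more, while Krt19 read 8.77, 8.87 and 6.56 and was low on the NTS/PGE2 array alone.

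The kidney filters amino acids freely at the glomerulus and takes nearly all of them back in the proximal tubule. Carriers of the luminal brush border, driven by sodium, protons or exchange, bring them into the cell, and exchangers and uniporters of the basolateral membrane pass them on to the blood. Other members serve needs that every cell has: uptake of glutamine, cystine and essential amino acids for growth and under stress, and sensing and efflux at the lysosome. Several members of the Slc1 and Slc6 families are known chiefly for clearing neurotransmitters in the brain, and some of those of Slc6 bring osmolytes into cells of the renal medulla.

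Between the NTS and control arrays, 5 of the 64 members were lower in NTS by 2-fold or more and 1 was higher by as much. Those lower were Slc7a12, Slc6a20b, Slc36a2, Slc6a4 and Slc1a1, and the member that was higher was Slc6a19os, which is no carrier. Of all 11778 genes passing the filter in this comparison, 5.42% were at least 2-fold lower and 2.70% at least 2-fold higher; 41 members passed it, and those lower and higher make up 12.2% and 2.44% of these. Without the opposite-strand genes, a choice made after the values were seen, 0 carriers were higher in NTS by 2-fold. Between NTS/PGE2 and NTS, 7 members were higher in NTS/PGE2 by 2-fold or more and 1 was lower by as much, again Slc6a19os. The 7 were Slc7a12, Slc6a20b, Slc6a15, Slc1a1, Slc6a12, Slc6a13 and Slc6a4. Here 39 members passed the filter, of which those higher and lower make up 17.9% and 2.56%, and over 11699 passing genes 4.15% were at least 2-fold higher and 3.28% at least 2-fold lower. Between NTS/PGE2 and control, Slc6a15 was at least 2-fold higher and Slc36a2 at least 2-fold lower, with 40 members passing and 0.0607% and 0.659% of 11534 passing genes in those directions. The first and second comparisons share the NTS array, so one low or high NTS value enters both.

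**Figure D1:**
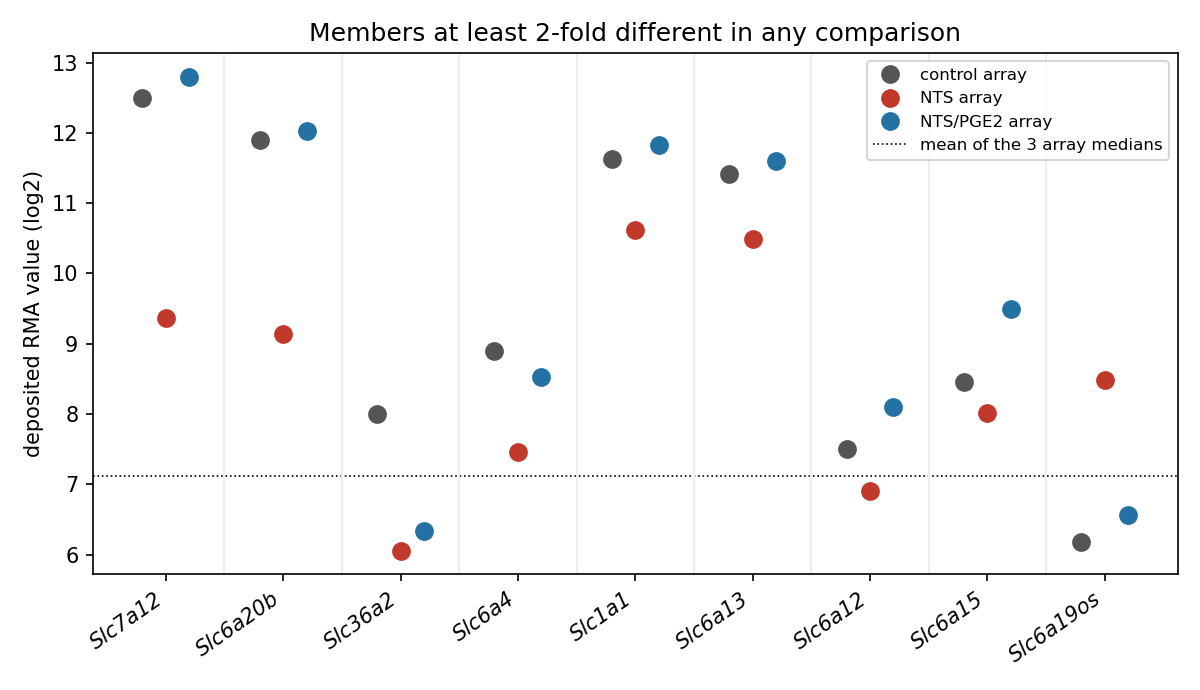
Deposited log2 values (vertical axis) of the 9 members at least 2-fold different in any comparison, with 1 point for each of the control, NTS and NTS/PGE2 arrays; the dotted line is the mean of the 3 array medians. In 8 of the 9 the NTS point is lowest, with Slc36a2 high on the control array alone, and Slc6a19os is high on the NTS array alone.

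Over all 64 members the median difference was 0 for NTS minus control, 0.001 for NTS/PGE2 minus NTS and 0 for NTS/PGE2 minus control, against 0 over all genes in each. These medians sit at 0 because many values were equal: 18 members for NTS against control had the same value on both arrays, as did 7369 of all genes. Over all passing genes the medians were 0, and 4784 of 11778 read lower and 4740 higher for NTS minus control. Over the members passing the filter alone the medians were -0.21, 0.18 and 0, and 24 of 41 read lower and 11 higher for NTS minus control. A gene can pass through the array on which it is high, so these describe the members that passed and are not set against a test. Of the 64, 13 had exactly equal values on all 3 arrays and 23 lay below the median on all 3, 9 of them in both groups. Equal values come readily from the median polish of the authors' processing and do not show that a gene was unchanged. Slc6a14, Slc7a11, Slc7a13 and Slc7a15 lay below the 25th percentile of all 3 arrays and may be read at background.

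**Figure D2:**
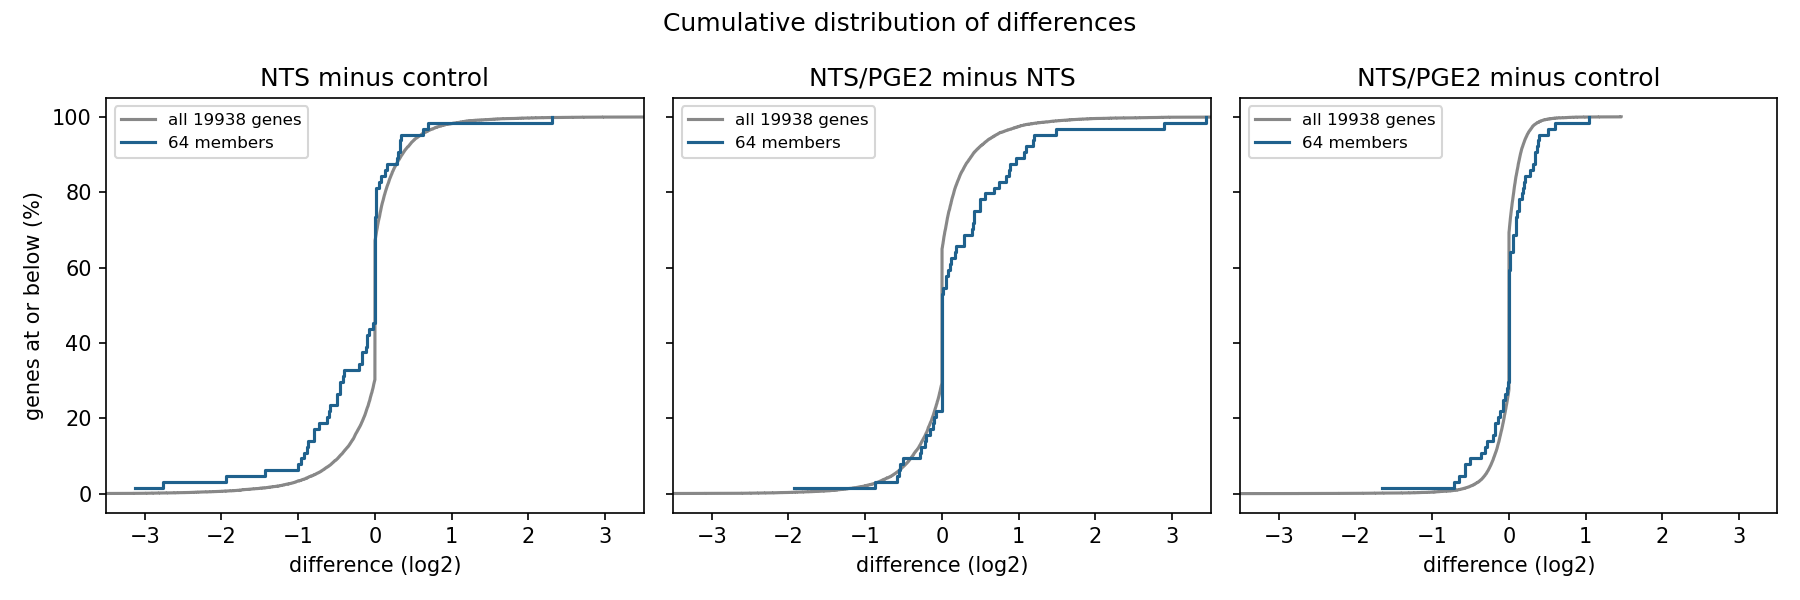
Cumulative share of genes (vertical axis, percent) with a log2 difference at or below the value on the horizontal axis, for the 64 members and for all 19938 genes, in each of the 3 comparisons. The members' curve lies above that of all genes on the negative side for NTS minus control and below it on the positive side for NTS/PGE2 minus NTS; no test was run on the curves.

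All 9 measured carriers of luminal uptake read lower in NTS than in control, where 30.2% of all 19938 genes did and many were equal. The 8 of the 9 that passed the filter compare with 4784 lower of 11778 passing genes. The dim Slc7a13 differed by -0.17, less than the SD between probe sets. The median difference of the 9 was -0.79, and Slc6a20b, Slc36a2 and Slc1a1 were lower by 2-fold or more. Of these, Slc36a2 is also a fat cell marker and was high on the control array alone. On the NTS/PGE2 array 8 of the 9 read higher than in NTS, with a median of 0.88, as did 35.1% of all genes. Of the 7 passing the filter 6 were higher, as were 4662 of 11699 passing genes. Slc6a20b and Slc1a1 were at least 2-fold higher. The exception, Slc6a19, had its lowest value there. Proximal tubule markers had medians of -1.45 and 1.51 in the same comparisons, larger than those of the luminal carriers; their part in the carriers' differences was not tested.

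Slc6a20b had the largest difference of a luminal carrier. It belongs to a pair of near copies in the mouse: Slc6a20a is the carrier of proline and other imino acids, and Slc6a20b (XT3) is the next protein-coding gene to it in the GRCm38.p6 gene table. Slc6a20b read 11.89, 9.13 and 12.02 on the control, NTS and NTS/PGE2 arrays. Its NTS value stands apart, 6.77-fold below control, while the other arrays differ by 0.13 on the log2 scale. Slc6a20a read 10.15, 9.70 and 10.26 in the same order. Its NTS value was lowest too, at a difference of -0.45 from control, under 2-fold. Because the copies are close in sequence, each value may hold signal of the other. The stretches upstream of their starts are shown because the copies differed in size of response; RefSeq's table for GRCm38.p6 gave the 250 bases before each start, written 5' to 3', with matches to a motif in capitals.

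Slc6a20b, chr9:123632539-123632788, minus strand: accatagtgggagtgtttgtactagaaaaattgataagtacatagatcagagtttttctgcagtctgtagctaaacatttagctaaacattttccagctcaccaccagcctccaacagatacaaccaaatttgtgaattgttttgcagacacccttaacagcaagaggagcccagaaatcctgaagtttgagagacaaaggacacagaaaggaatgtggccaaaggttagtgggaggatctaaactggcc
Slc6a20a, chr9:123678833-123679082, minus strand: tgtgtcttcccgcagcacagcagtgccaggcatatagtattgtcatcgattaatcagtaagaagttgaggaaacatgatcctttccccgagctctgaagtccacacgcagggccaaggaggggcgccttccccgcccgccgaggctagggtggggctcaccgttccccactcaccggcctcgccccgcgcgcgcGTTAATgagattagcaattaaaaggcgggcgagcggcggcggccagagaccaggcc

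The longest run of bases that these stretches share on the same strand is 7. The capitals in Slc6a20a mark GTTAAT, the core of the motif of HNF1, a transcription factor of the proximal tubule; Slc6a20b holds no match in this window. On either strand, GTTAAT was found in 6.43% of all 32851 such windows and in 6 of the 68 windows of members. A gene with several starts has several windows. The 6 belong to 6 of the 47 members with an entry: Slc36a1, Slc6a13, Slc6a16, Slc6a20a, Slc7a15 and Slc7a7. A match is a run of letters and not evidence of a site.

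Slc1a1, the carrier of glutamate and aspartate in the late proximal tubule, read 11.62, 10.62 and 11.82 on the control, NTS and NTS/PGE2 arrays. The NTS value was 2.01-fold below control, just past the size rule. Slc3a1 (rBAT) and Slc7a9 (b0,+AT) are the heavy and light subunits of the exchanger that takes up cystine, lysine and arginine, and loss of either causes cystinuria. Slc3a1 read 12.89, 12.10 and 13.06 on the control, NTS and NTS/PGE2 arrays. Slc7a9 read 10.87, 10.00 and 10.89. Both subunits were lowest on the NTS array, at differences of -0.79 and -0.87 from control, and both were back within 0.2 of control on the NTS/PGE2 array. Their upstream stretches, shown because the subunits act as a single carrier, follow in the same form; Slc7a9 has 2 starts in the table, and the more upstream is given.

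Slc3a1, chr17:85028097-85028346, plus strand: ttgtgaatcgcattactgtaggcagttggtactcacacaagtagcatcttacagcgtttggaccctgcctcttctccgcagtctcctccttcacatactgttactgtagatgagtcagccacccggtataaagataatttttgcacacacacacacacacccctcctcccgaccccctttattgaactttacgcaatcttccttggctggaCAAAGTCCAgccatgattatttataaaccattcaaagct
Slc7a9, chr7:35448842-35449091, plus strand: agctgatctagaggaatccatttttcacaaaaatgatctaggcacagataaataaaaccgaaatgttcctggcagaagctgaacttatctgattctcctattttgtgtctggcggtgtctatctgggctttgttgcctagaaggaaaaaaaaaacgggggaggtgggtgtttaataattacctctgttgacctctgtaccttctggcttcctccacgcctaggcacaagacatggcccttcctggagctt

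The capitals in Slc3a1 mark CAAAGTCCA, a form of the motif of HNF4A, a further proximal tubule factor, which 0.384% of all windows hold on either strand. Among the 68 windows of members 1 held a match, and Slc3a1 was the 1 member with a match among the 47 with an entry. The gene of the factor itself, Hnf4a, read 12.12, 11.55 and 12.29 on the control, NTS and NTS/PGE2 arrays.

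Slc6a18 (B0AT3), a carrier of glycine and other neutral amino acids in the late proximal tubule, read 12.36, 11.77 and 12.64 on the control, NTS and NTS/PGE2 arrays. Its neighbour Slc6a19 (B0AT1) is the main luminal carrier of neutral amino acids, and its loss causes Hartnup disorder. Slc6a19 read 11.85, 11.35 and 11.14. These neighbouring genes were both lower on the NTS array but parted on the NTS/PGE2 array, where Slc6a18 lay above control by 0.28 and Slc6a19 differed from it by -0.71. Cltrn (collectrin), which both need to reach the luminal membrane, read 12.57, 12.10 and 12.40. Among 7 measured partners and related genes of reabsorption, 6 passed the filter. Over all passing genes 5.42% were at least 2-fold lower in NTS than in control, and 4.15% at least 2-fold higher in NTS/PGE2 than in NTS. Of the 6, 2 were lower in NTS than in control and higher in NTS/PGE2 than in NTS by 2-fold or more. These were Slc15a2 (PEPT2), which takes up small peptides, with 10.26, 8.88 and 10.81, and the brush border aminopeptidase gene Anpep, with 11.39, 10.10 and 11.84. Slc7a13, another light chain partner of rBAT, was dim, at 5.65, 5.47 and 5.65.

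Slc36a2 (PAT2), a proton-coupled carrier of glycine and proline, is both a luminal carrier and a surface marker of brown fat cells. It read 7.99, 6.05 and 6.34 on the control, NTS and NTS/PGE2 arrays. It was high on the control array alone, 3.84-fold above NTS and 3.15-fold above NTS/PGE2, and both lower values lay under the array medians. Fat markers were high on the control array too. Of 8 measured fat markers, 7 were lower in NTS than in control by 2-fold or more, and 7 in NTS/PGE2. Their linear values summed to 14639, 1216 and 1571 on the control, NTS and NTS/PGE2 arrays, and 1, 4 and 3 of the 8 lay below the 25th percentile. Whether the Slc36a2 difference comes with the fat genes was not tested. Slc7a10 (Asc-1), known as a surface marker of white fat cells, read 6.96, 6.88 and 6.88, below the median on every array, and leptin (Lep), made by white fat, read 5.65, 5.62 and 5.65. In the comparison that does not use the control array, NTS/PGE2 minus NTS, Slc36a2 differed by 0.28.

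**Figure D3:**
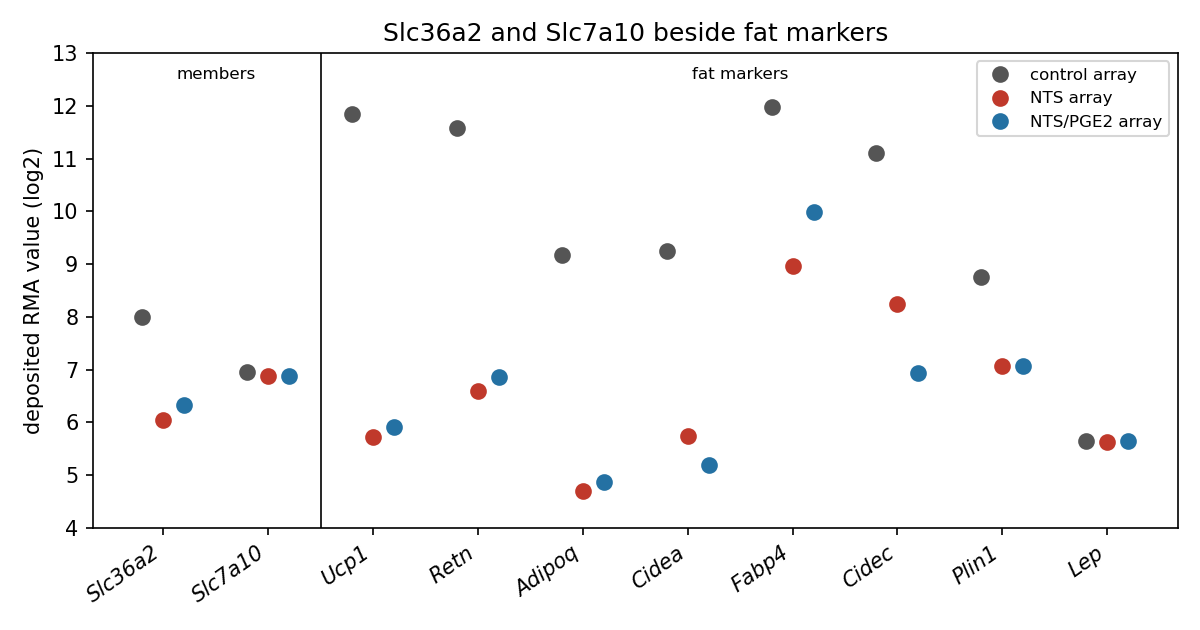
Deposited log2 values (vertical axis) of Slc36a2 and Slc7a10, left of the line, and of the 8 fat markers, right of it, with 1 point for each array. Slc36a2 and 7 fat markers are highest on the control array, while the control points of Slc7a10 and Lep lie close to the others.

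The 5 measured genes of basolateral exit went both ways on the NTS array and were all below control on the NTS/PGE2 array. Of all 11534 passing genes, 4743 were below control on that array. Slc3a2 differed from control there by -0.15, near the SD between probe sets of 0.12. The median difference of the 5 was -0.10 for NTS minus control and -0.51 for NTS/PGE2 minus control, against 0 over all genes. All 5 passed the filter and 0 of the 5 were 2-fold different in any comparison. Of all passing genes 5.42% were at least 2-fold lower and 2.70% higher for NTS against control, so a count of 0 among 5 does not set these genes apart. Slc7a7 (y+LAT1), which exports lysine and arginine and is lost in lysinuric protein intolerance, read 11.63, 10.66 and 11.06 on the control, NTS and NTS/PGE2 arrays. Slc38a3 (SNAT3), which carries glutamine, read 11.73, 11.11 and 11.23. Both were lowest on the NTS array and only part of the way back on the NTS/PGE2 array. Slc7a8 (LAT2), an exchanger of neutral amino acids, behaved otherwise. It read 11.65, 11.55 and 11.00 on the control, NTS and NTS/PGE2 arrays, which was its low array. Slc3a2 (4F2hc), the heavy chain that Slc7a7 and Slc7a8 both need, read 12.79, 12.80 and 12.64. The heavy chain differed from control by 0.01 on the NTS array and by -0.15 on the NTS/PGE2 array, less than Slc7a7 did on either. Slc43a2 (LAT4), a uniporter of essential neutral amino acids, read 10.37, 10.72 and 10.17, highest on the NTS array. Outside the families, Slc16a10 (TAT1), the basolateral exit of aromatic amino acids, read 9.04, 8.19 and 8.88.

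**Figure D4:**
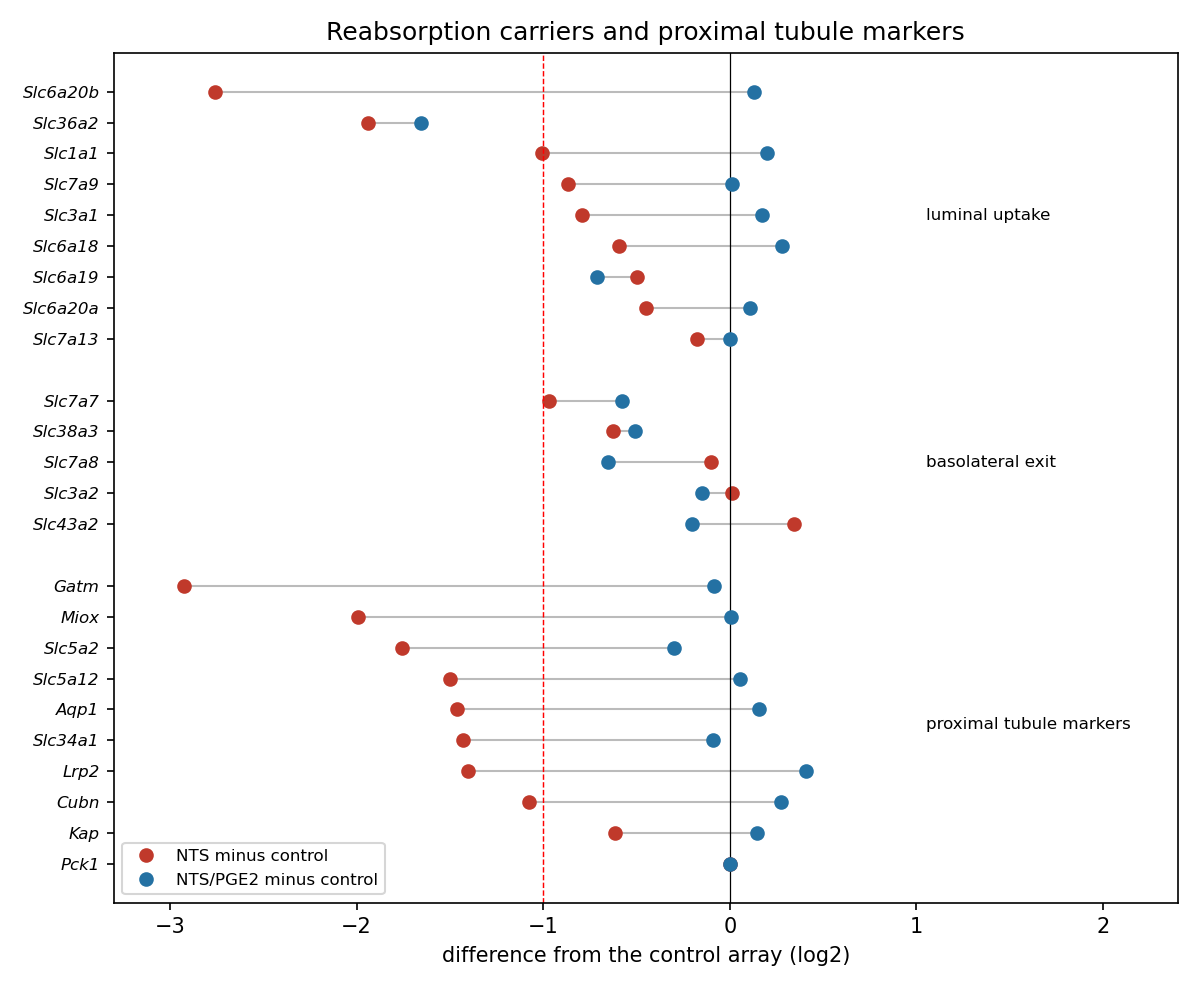
Log2 difference from the control array (horizontal axis) of the NTS array (red) and the NTS/PGE2 array (blue) for 9 luminal carriers, 5 genes of basolateral exit and 10 proximal tubule markers; the dashed line is 2-fold lower. Blue points of most luminal carriers and markers lie near 0, while those of Slc36a2, Slc6a19, Slc7a7, Slc7a8 and Slc38a3 lie at -0.5 or below.

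On the NTS/PGE2 array several members stood off control by less than 2-fold. Of the 40 members passing the filter, 31 lay within 0.5 log2 units of control, which is 77.5%, against 96.1% of all 11534 passing genes; no test was run on this. Of the other 9 members, 6 were lower and 3 higher, where 3.02% and 0.850% of all passing genes were. The 6 lower were Slc36a2, Slc6a19, Slc7a8, Slc7a7, Slc1a5 and Slc38a3. The 3 higher were Slc6a15, Slc6a12 and Slc38a2. All of these are differences from the control array, on which fat markers were high, and the part of those markers was not tested. Against the NTS array, Slc1a5, Slc7a8 and Slc6a19 differed by -0.58, -0.55 and -0.21. Slc38a3, Slc36a2 and Slc7a7 differed from NTS by 0.12, 0.28 and 0.39, and Slc38a2, Slc6a12 and Slc6a15 by 0.67, 1.19 and 1.49. The 10 proximal tubule markers lay within 0.5 of control on the NTS/PGE2 array, with a median of 0.03.

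Slc7a12 had the largest difference of any member in the first and second comparisons. It encodes Asc-2, a light chain of the Slc7 family that is found in the mouse kidney, more abundantly in females. It read 12.49, 9.36 and 12.80 on the control, NTS and NTS/PGE2 arrays. The NTS value was 8.73-fold below control and 10.8-fold below NTS/PGE2; the control and NTS/PGE2 values differed by 0.31 on the log2 scale.

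In the list of osmolyte and creatine uptake, 2 of 4 carriers were higher in NTS/PGE2 than in NTS by 2-fold or more. Over all passing genes 4.15% were. On either array 0 of 4 were 2-fold different from control. Of all passing genes 5.42% were at least 2-fold lower and 2.70% higher for NTS against control. A count of 0 among 4 therefore does not set these carriers apart. Slc6a12 (BGT1), which brings betaine into cells of the hypertonic medulla, read 7.49, 6.91 and 8.09 on the control, NTS and NTS/PGE2 arrays. The NTS value of Slc6a12 lay under that array's median of 7.11, so in comparisons with NTS this gene passed the filter through the other array alone. Slc6a12 was the carrier of this list that passed control by the most on the NTS/PGE2 array, by 0.60. Slc6a13 (GAT2), its neighbour in the genome, carries taurine and GABA, and read 11.42, 10.50 and 11.59. Both neighbours were lowest on the NTS array. Slc6a6, the taurine carrier, read 11.72, 11.77 and 12.06, and Slc6a8, the creatine carrier, read 10.91, 11.24 and 10.73. Slc6a8 was highest on the NTS array, opposite to Slc6a12 and Slc6a13. Markers of the segments beyond the proximal tubule were low on the NTS array too: those of the loop and distal tubule had a median over 5 markers of -1.03 for NTS minus control and 1.10 for NTS/PGE2 minus NTS, with linear sums of 30884, 21293 and 33348 on the control, NTS and NTS/PGE2 arrays, and 3 of 5 were lower by 2-fold or more in NTS than in control. Those of the collecting duct had medians of -0.91 and 0.86 over 5 markers, with sums of 6030, 3199 and 6383 and 2 of 5 lower by 2-fold or more. None of these 10 markers lay below the 25th percentile of any array. Their part in the differences of Slc6a12 was not tested.

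None of the 12 carriers of growth and stress uptake was 2-fold different in any comparison among these arrays, but only 8 passed the filter. Of all passing genes 5.42% were at least 2-fold lower and 2.70% higher for NTS against control, so this count does not set them apart. Medians over all 12 were 0, -0.04 and 0 in the 3 comparisons, and over the 8 that passed -0.02, 0.21 and -0.03. Slc7a5 (LAT1), the exchanger that brings in leucine and other large neutral amino acids, read 8.14, 8.83 and 7.95 on the control, NTS and NTS/PGE2 arrays. It was highest on the NTS array, by 0.69 above control, the largest such difference of a carrier in this list. Slc1a5 (ASCT2), which exchanges glutamine, read 10.41, 10.42 and 9.83, low on the NTS/PGE2 array alone. Slc38a2 (SNAT2), a sodium-coupled carrier of glutamine and alanine, read 11.21, 11.04 and 11.71, high on the NTS/PGE2 array. Slc43a1 (LAT3), a uniporter of branched-chain amino acids, read 7.81, 6.91 and 7.75. Slc6a9 (GLYT1), a glycine carrier, read 9.60, 9.20 and 9.94. Both of these were lowest on the NTS array. The serine carrier Slc1a4 (ASCT1) read 8.37, 8.34 and 8.75. Slc7a1 (CAT1), the general carrier of arginine and lysine, read 8.24 on all 3 arrays and Slc7a6 (y+LAT2) read 8.15, 8.15 and 8.07. Its relatives Slc7a2 and Slc7a3 and the glutamine carrier Slc38a1 were below the median on every array, with NTS minus control of -0.12, 0.63 and 0.29.

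Slc7a11 (xCT), which imports cystine in exchange for glutamate for glutathione synthesis and is known as a target of the stress factor ATF4, was below the 25th percentile on every array, at 5.09, 5.41 and 5.30. Its upstream stretch is shown because it carries the response element of that factor.

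Slc7a11, chr3:50443614-50443863, minus strand: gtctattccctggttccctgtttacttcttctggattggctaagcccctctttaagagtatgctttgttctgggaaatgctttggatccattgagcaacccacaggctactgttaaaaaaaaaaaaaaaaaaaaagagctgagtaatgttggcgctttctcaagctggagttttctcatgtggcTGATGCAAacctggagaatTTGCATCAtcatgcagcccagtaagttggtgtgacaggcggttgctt

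The capitals mark 2 matches to TGATGNAA, the C/EBP-ATF response element, 1 on each strand. This motif was found on either strand in 3.45% of all windows and in 4 of the 68 windows of members. The 4 belong to 3 of the 47 members with an entry, Slc7a11, Slc7a7 and Slc6a21. The cAMP response element TGACGTCA was searched because receptors of PGE2 can raise cAMP. It was found in 1.55% of all windows and in 1 of the 68 windows of members. That window belongs to Slc38a6, which read 8.58, 8.66 and 8.67.

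Other genes that ATF4 is known to drive, and genes of serine, cysteine and glutathione synthesis, went both ways. Of 17 measured, 16 passed the filter. In NTS against control, 1 was higher and 2 were lower by 2-fold or more, beside 2.70% and 5.42% of all passing genes. In NTS/PGE2 against NTS, 2 were higher and 2 lower, beside 4.15% and 3.28% of all passing genes. Sesn2, a stress-induced inhibitor of mTORC1, was higher on the NTS array by 1.58. Shmt2, the mitochondrial serine hydroxymethyltransferase, read 10.65, 9.47 and 10.06, and Cth, the last enzyme of cysteine synthesis, read 11.66, 10.40 and 11.78. Both were lowest on the NTS array. Psat1, of serine synthesis, read 8.80, 9.63 and 8.23, and Asns, asparagine synthetase, read 8.92, 9.66 and 8.70. Both were highest on the NTS array, by less than 2-fold over control. Gclm, a subunit of the enzyme that starts glutathione synthesis, read 12.17, 11.23 and 12.29 on the control, NTS and NTS/PGE2 arrays. It was lowest on the NTS array, 1.06 below NTS/PGE2, and its NTS/PGE2 value lay 0.12 from control. Gclc, the other subunit, read 11.99, 12.72 and 12.58 and was lowest on the control array. Atf4 itself read 8.92 on all 3 arrays. Of the 17, 8 read higher, 4 lower and 5 equal in NTS against control, the equal ones being Atf4, Ddit3, Trib3, Psph and Aldh18a1. Chac1 differed by 0.08.

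Carriers of the lysosome and other inner membranes showed small differences. None of 6 was 2-fold different in any comparison among these arrays, and 5 of the 6 passed the filter. Of all passing genes 5.42% were at least 2-fold lower and 2.70% higher for NTS against control. This count of 0 therefore does not set the list apart. Slc36a1 (PAT1), the proton-coupled exporter of small amino acids from the lysosome, differed most, with 10.32, 9.58 and 10.01 on the control, NTS and NTS/PGE2 arrays. Slc38a9, the arginine sensor that signals to mTORC1, and Slc38a10 had equal values on all 3 arrays. Of 19 measured genes of the mitochondrial carriers, lysosomal efflux and the mTORC1 docking complex, 17 passed the filter and 1 was at least 2-fold different. A count of 1 among 17 does not set these genes apart from the shares above. Slc25a22, which carries glutamate into mitochondria, was that gene and read 7.71, 9.25 and 7.90 on the control, NTS and NTS/PGE2 arrays.

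Of 12 carriers known mainly from neurotransmission, 7 lay below the median on every array, and the brain neuron markers Snap25, Syt1 and Rbfox3 lay below it too. Slc6a4, the serotonin carrier, was the member of this list that was lower in NTS by 2-fold or more. It read 8.89, 7.46 and 8.52 on the control, NTS and NTS/PGE2 arrays, so that the NTS array was 2.70-fold below control. Slc6a15 (B0AT2), a carrier of branched-chain amino acids and proline found mainly in brain, read 8.46, 8.01 and 9.50. It was highest on the NTS/PGE2 array, 2.81-fold above NTS and 2.06-fold above control, and was the 1 member to pass control 2-fold there. Slc1a3 (GLAST), a glial glutamate carrier, read 7.42, 6.63 and 7.13, and Slc6a17, a vesicle carrier, read 8.57, 8.70 and 8.70.

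**Figure D5:**
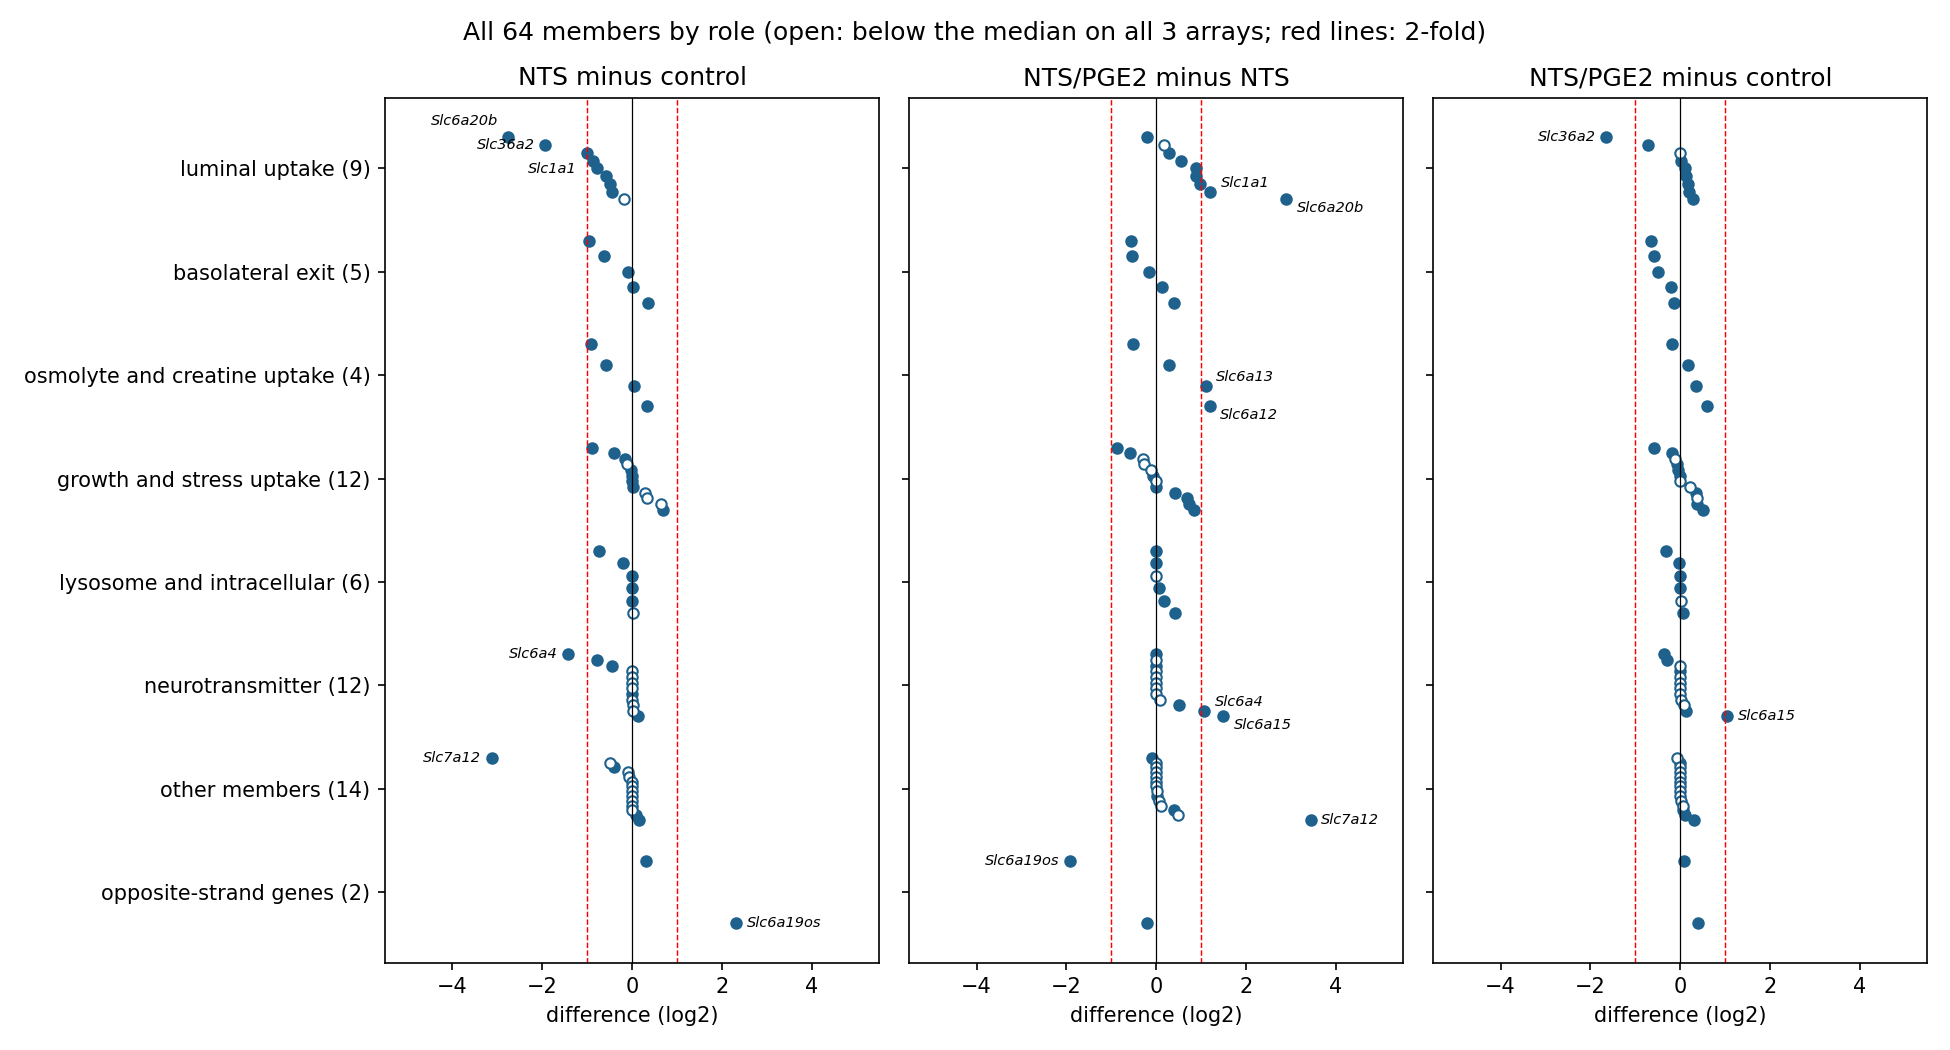
Log2 differences (horizontal axis) of all 64 members by role in the 3 comparisons; open points lay below the median on all 3 arrays, and the dashed lines mark 2-fold. Points of luminal uptake lie left of 0 for NTS minus control and, except Slc6a19, right of 0 for NTS/PGE2 minus NTS, while the lists of growth, lysosome and basolateral genes stay within the dashed lines in all 3 comparisons.

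Among members with no role in the lists, Slc43a3, which is known to carry purine bases rather than amino acids, read 11.20, 10.78 and 11.18 on the control, NTS and NTS/PGE2 arrays. Apart from Slc7a12, the 14 such members held no 2-fold difference that passed the filter, and 10 of the 14 lay below the median on every array.

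Slc6a19os is a long non-coding RNA gene whose model overlaps that of Slc6a19 in the GRCm38.p6 gene table. It read 6.18, 8.49 and 6.56 on the control, NTS and NTS/PGE2 arrays. It was high on the NTS array alone, 4.96-fold above control and 3.80-fold above NTS/PGE2, while Slc6a19 differed by -0.50 for NTS minus control and by -0.21 for NTS/PGE2 minus NTS. Both the control and the NTS/PGE2 value of Slc6a19os lay under the median of their array, so it passed the filter through the NTS array alone and did not pass it for NTS/PGE2 against control. Whether the probes of each gene read its strand alone is not given in the sources used here. Slc7a6os, a protein-coding gene named for its place beside Slc7a6, read 8.21, 8.51 and 8.30. Markers of proliferation were high on the NTS array as well, with summed linear values over 4 markers of 323, 1908 and 372 on the control, NTS and NTS/PGE2 arrays. Macrophage markers went both ways, with sums over 7 markers of 3240, 4064 and 2483. No T and B cell marker of 6 passed the filter in any of the 3 comparisons. The part of these cells in the differences of Slc6a19os, Slc7a5 or other members was not tested.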

How the data were processed

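Kidney RNA of 3 groups, 1 array each, was labelled from 250 ng and hybridised, per the labels' protocols. The authors deposited log2 values from RMA in Affymetrix Expression Console, per the submitters' processing notes. The software versions and genome build were not given in the sources used here. The RMA method corrects background, equalises the arrays' distributions and summarises probes by median polish, which can give equal values and understate small differences.

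The platform annotation gave a single symbol to 21789 of the 35556 probe sets, and these were used, averaged per gene; 1621 with several symbols and 12146 with none were left out. All 64 members matched the GRCm38.p6 gene table by identifier, and 0 symbols changed. Differences, the filter and counts were computed with Python 3.11.15 and pandas 2.3.3 over all 19938 genes; the counting was tested on simulated data. No p-value was computed. The number of arrays limits the precision.

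Members and lists were chosen with earlier results of these data known. Named genes were members at least 2-fold different in any comparison, every measured member of the 4 lists of luminal uptake, basolateral exit, growth and stress, and osmolytes, the fat markers Slc7a10 and Slc36a2, and related genes at least 2-fold different; others were named for their group. Alternatives were the filter, the fold, the probe set, centring and the members included. Motifs and the promoters shown were chosen after the values were seen.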

Additional observations from a re-analysis of the deposited data

How the results depend on the processing

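No replicate could be left out, since each group had 1 array. No paired analysis was possible because there was 1 array per group. With a 1.5-fold size rule the members higher and lower numbered 2 and 15 in the comparison of NTS with control, 13 and 2 in that of NTS/PGE2 with NTS, and 2 and 3 in that of NTS/PGE2 with control. Without Slc7a10 and Slc36a2, 0 members were lower for NTS/PGE2 against control. Without the opposite-strand genes, an alternative chosen after seeing the data, 0 were higher for NTS against control and 0 lower for NTS/PGE2 against NTS. These changes follow from the fold or the members left out. Counts stayed within 1.5 times and medians within the SD between probe sets in 30 of 30 recomputed values under a filter at the 25th percentile, no filter, the brightest probe set and arrays centred on their medians, and in 15 of 18 when members were left out. Over the 35 named members, 210 of 210 recomputed differences kept their side of 2-fold under the brightest probe set and under centring. This was nearly fixed in advance and is no check on the differences. The same holds for the counts and medians recomputed under the brightest probe set and under centring. Only Slc38a1 and Slc38a9 had 2 probe sets, so the brightest probe set could change no other member. Centring moved all genes by at most 0.03 on the log2 scale. The sign turned in 1 of the 210, Slc7a9 for NTS/PGE2 against control, from 0.01 to -0.02 with centred arrays. Of 16 recomputed values that had been exactly 0, 8 were no longer 0. Depth has no meaning here; members below the 25th percentile may be background.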
